A study of Mus musculus with 48 samples.

Results

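The 7 genes that encode the cyclin-dependent kinase inhibitors of mouse were followed through the cell types of the embryonic hypothalamus, in control embryos and in embryos without Eed in neural cells. The members were taken by name from the 16510 genes of the deposited count table: Cdkn1a, Cdkn1b and Cdkn1c of the Cip/Kip family, and Cdkn2a, Cdkn2b, Cdkn2c and Cdkn2d of the Ink4 family. All 7 were in the table. They were taken as whole gene families, though with earlier results of these data known. Hypothalami were dissected at E18.5 from 6 control embryos (Eed fl/fl, 22 libraries) and 9 Eed-cKO embryos (Eed fl/fl; Sox1-Cre/+, 26 libraries), on a mixed B6:129S1 background, divided into pieces, dissociated with papain, and profiled by droplet scRNA-seq (ddSEQ). All embryos of both groups thus carried the floxed Eed alleles, and only the Eed-cKO embryos carried Cre. Sox1-Cre is active in the early neuroectoderm. The paper took vascular cells, blood cells and microglia to be outside the reach of Sox1-Cre, and whether Cre acted in non-neural cells was not tested. In non-neural cells the log2 fold change of Eed transcripts was -0.85 ± 0.33 (63 against 49 UMIs, edgeR adjusted p = 0.216). Control embryos were 2 female and 4 male, and Eed-cKO embryos were 5 female and 4 male. No litter held both genotypes, so litter and genotype cannot be told apart.

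Cyclin-dependent kinases paired with cyclins drive cells from G1 into S phase and through mitosis. Inhibitors of the Ink4 family bind CDK4 and CDK6 and keep D-type cyclins from activating them, whereas Cip/Kip inhibitors bind cyclin-CDK complexes more broadly, and the retinoblastoma proteins then hold E2F factors inactive. Eed is a core subunit of the polycomb repressor complex 2 (PRC2), which trimethylates histone H3 at lysine 27, and the locus that holds Cdkn2a and Cdkn2b is a classical polycomb target.

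The table held 14121 cells, with 1042 to 1664 cells per control embryo and 217 to 1111 cells per Eed-cKO embryo. The library totals ran from 576432 to 4513505 UMIs (unique molecular identifiers, each marking 1 captured transcript molecule). One library of control embryo 5 stood apart with 1207 cells, and 101 barcodes were found in more than 1 library, in 203 cells. The deposited table gave no cell types, so cells were clustered and clusters were called by marker genes as neuron-like (5872 control and 4978 Eed-cKO cells), astrocyte-like (265 and 325), cycling (64 and 134), tanycyte-like (91 and 287), ependymal-like (113 and 224) or non-neural (347 and 481). Oligodendrocyte precursor-like cells (68 and 32) and cells of unnamed clusters (366 and 474) were kept only in the sum of all neural cells. That sum thus holds every cell outside the non-neural clusters, among them mutant cells of unnamed clusters with raised pituitary markers. UMIs were summed per embryo and cell type, and the embryo was the replicate. Levels are given as CPM, the UMIs of a gene in a cell type of an embryo for every 1000000 UMIs of all genes in those cells. Eed itself was 28.7 to 33.0 CPM in neural cells of control embryos and 19.5 to 27.9 in Eed-cKO embryos, but these 3′ tags lie outside the deleted exons and so do not check the deletion. Hox transcripts summed to at most 0.373 CPM in control neural cells and to between 392 and 586 in Eed-cKO cells.

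Cdkn2a (GRCm38 chr4:89274471-89294653, minus strand) and Cdkn2b (chr4:89306299-89311039, minus strand) lie 11645 bases apart, and Cdkn2c (chr4:109660876-109667189, minus strand) is on the same chromosome. Cdkn1a (chr17:29090976-29100727, plus strand) and Cdkn1b (chr6:134920401-134925513, plus strand), Cdkn1c (chr7:143458339-143461050, minus strand) and Cdkn2d (chr9:21288410-21291407, minus strand) lie elsewhere. These intervals give whole genes in GENCODE. Cdkn1a and Cdkn1c each overlap an annotated RNA on the opposite strand, and the strand setting of the counting is not given in the sources used here, so reads of the partners cannot be told apart. Both transcripts of Cdkn2a, for p16Ink4a and for p19Arf, share their 3′ end and were counted together.

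The promoters of the Ink4 genes are shown because Cdkn2a, Cdkn2b and Cdkn2c were higher in the mutants whereas Cdkn2d was not, and because CpG-dense promoters are typical places of PRC2 action. RefSeq (GRCm38.p6) gave 9 promoter windows for 6 of the 7 genes, each from 250 bases before to 50 bases after a transcript start. Capitals mark CpG dinucleotides, and all sequences run 5′ to 3′ on the minus strand of the genome.
Cdkn2a upstream start (chr4:89294570-89294869): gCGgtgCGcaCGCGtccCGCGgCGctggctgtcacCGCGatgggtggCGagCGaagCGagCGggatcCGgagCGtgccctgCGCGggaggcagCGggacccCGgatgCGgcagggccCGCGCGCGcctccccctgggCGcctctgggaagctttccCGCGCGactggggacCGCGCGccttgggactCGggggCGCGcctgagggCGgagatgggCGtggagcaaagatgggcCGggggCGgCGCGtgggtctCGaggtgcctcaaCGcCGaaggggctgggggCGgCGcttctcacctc
Cdkn2a downstream start (chr4:89282143-89282442): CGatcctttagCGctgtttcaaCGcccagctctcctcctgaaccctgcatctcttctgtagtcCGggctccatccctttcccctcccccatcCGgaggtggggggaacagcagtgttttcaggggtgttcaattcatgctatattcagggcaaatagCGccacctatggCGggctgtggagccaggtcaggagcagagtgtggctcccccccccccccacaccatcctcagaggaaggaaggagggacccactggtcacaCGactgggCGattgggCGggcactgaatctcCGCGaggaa
Cdkn2b (chr4:89310983-89311282): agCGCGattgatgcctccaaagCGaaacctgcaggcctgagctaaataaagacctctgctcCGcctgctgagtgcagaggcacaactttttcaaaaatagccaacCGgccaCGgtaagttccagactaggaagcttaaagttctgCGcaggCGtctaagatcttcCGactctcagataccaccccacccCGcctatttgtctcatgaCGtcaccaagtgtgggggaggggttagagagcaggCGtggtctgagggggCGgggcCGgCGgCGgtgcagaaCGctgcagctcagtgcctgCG
Cdkn2c, the CpG-rich of its 2 starts (chr4:109666707-109667006): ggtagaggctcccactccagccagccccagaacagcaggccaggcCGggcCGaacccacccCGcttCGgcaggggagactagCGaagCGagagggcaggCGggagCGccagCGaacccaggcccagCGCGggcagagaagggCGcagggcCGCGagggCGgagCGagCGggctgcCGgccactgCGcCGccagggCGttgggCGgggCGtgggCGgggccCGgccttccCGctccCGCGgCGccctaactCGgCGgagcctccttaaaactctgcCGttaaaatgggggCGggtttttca
Cdkn2d (chr9:21291160-21291459): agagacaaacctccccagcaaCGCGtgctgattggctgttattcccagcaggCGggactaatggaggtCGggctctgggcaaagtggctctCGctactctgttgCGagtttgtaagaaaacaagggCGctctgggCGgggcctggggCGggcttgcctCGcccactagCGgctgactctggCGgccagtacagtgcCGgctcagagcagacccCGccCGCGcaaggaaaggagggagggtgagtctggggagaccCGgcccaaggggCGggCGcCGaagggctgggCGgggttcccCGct

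The median mouse promoter of the 32851 windows held 7 CpG. The upstream Cdkn2a window held 45, a number reached by 1.93% of all windows, and the downstream window held 12. The printed Cdkn2c window held 33 CpG and its other window 8, Cdkn2b held 18 and Cdkn2d held 22, so the CpG number did not separate Cdkn2d from the other 3 Ink4 genes. The GC box GGGCGG, searched on both strands with overlaps allowed, was found 3 times in the upstream Cdkn2a window, 1 time in the downstream window, 1 time in Cdkn2b, 4 times in Cdkn2c and 5 times in Cdkn2d, and at least once in 35.7% of all windows. The E2F-type words TTTGGCGC, TTTCGCGC, TTTCCCGC and TTTGCCGC, searched in the same way, occurred 1 time in the upstream Cdkn2a window and in none of the other 4 printed windows, against 2.26% of all windows.

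Over all neural cells, 6 of the 7 inhibitors were higher in Eed-cKO embryos, and none was lower. Cdkn1a (log2 fold change 0.36 ± 0.09, edgeR adjusted p = 0.00731) and Cdkn1b (0.31 ± 0.10, adjusted p = 0.0192) were called there by a small margin and lost the call under limma-voom with TREAT, which asks for more than a log2 change of 0.18 (adjusted p = 0.177 and 0.334). Cdkn1a also lost it without clusters mostly of 1 genotype (adjusted p = 0.0669), and Cdkn1b without control embryo 3 or 4 (adjusted p = 0.0521 and 0.0564). For comparison, 27.7% of the 12558 genes tested were called at an adjusted p below 0.05, 15.3% as higher and 12.4% as lower. The sum hides the cell types, however: none of the 7 genes was called in all 5 neural cell types tested. Cdkn2a and Cdkn2b appeared in neurons and glia of the mutants, Cdkn1a rose in astrocyte-like, cycling, tanycyte-like and ependymal-like cells and was not called in neurons, Cdkn1b was called in neurons alone among the types tested, and Cdkn1c was called in tanycyte-like cells alone. A call in one cell type and none in another does not show that they differ, and tests of that difference from neuron-like cells are given with a gene where they passed. For Cdkn2a they could not be judged, because no control embryo held a UMI.

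**Figure D1:**
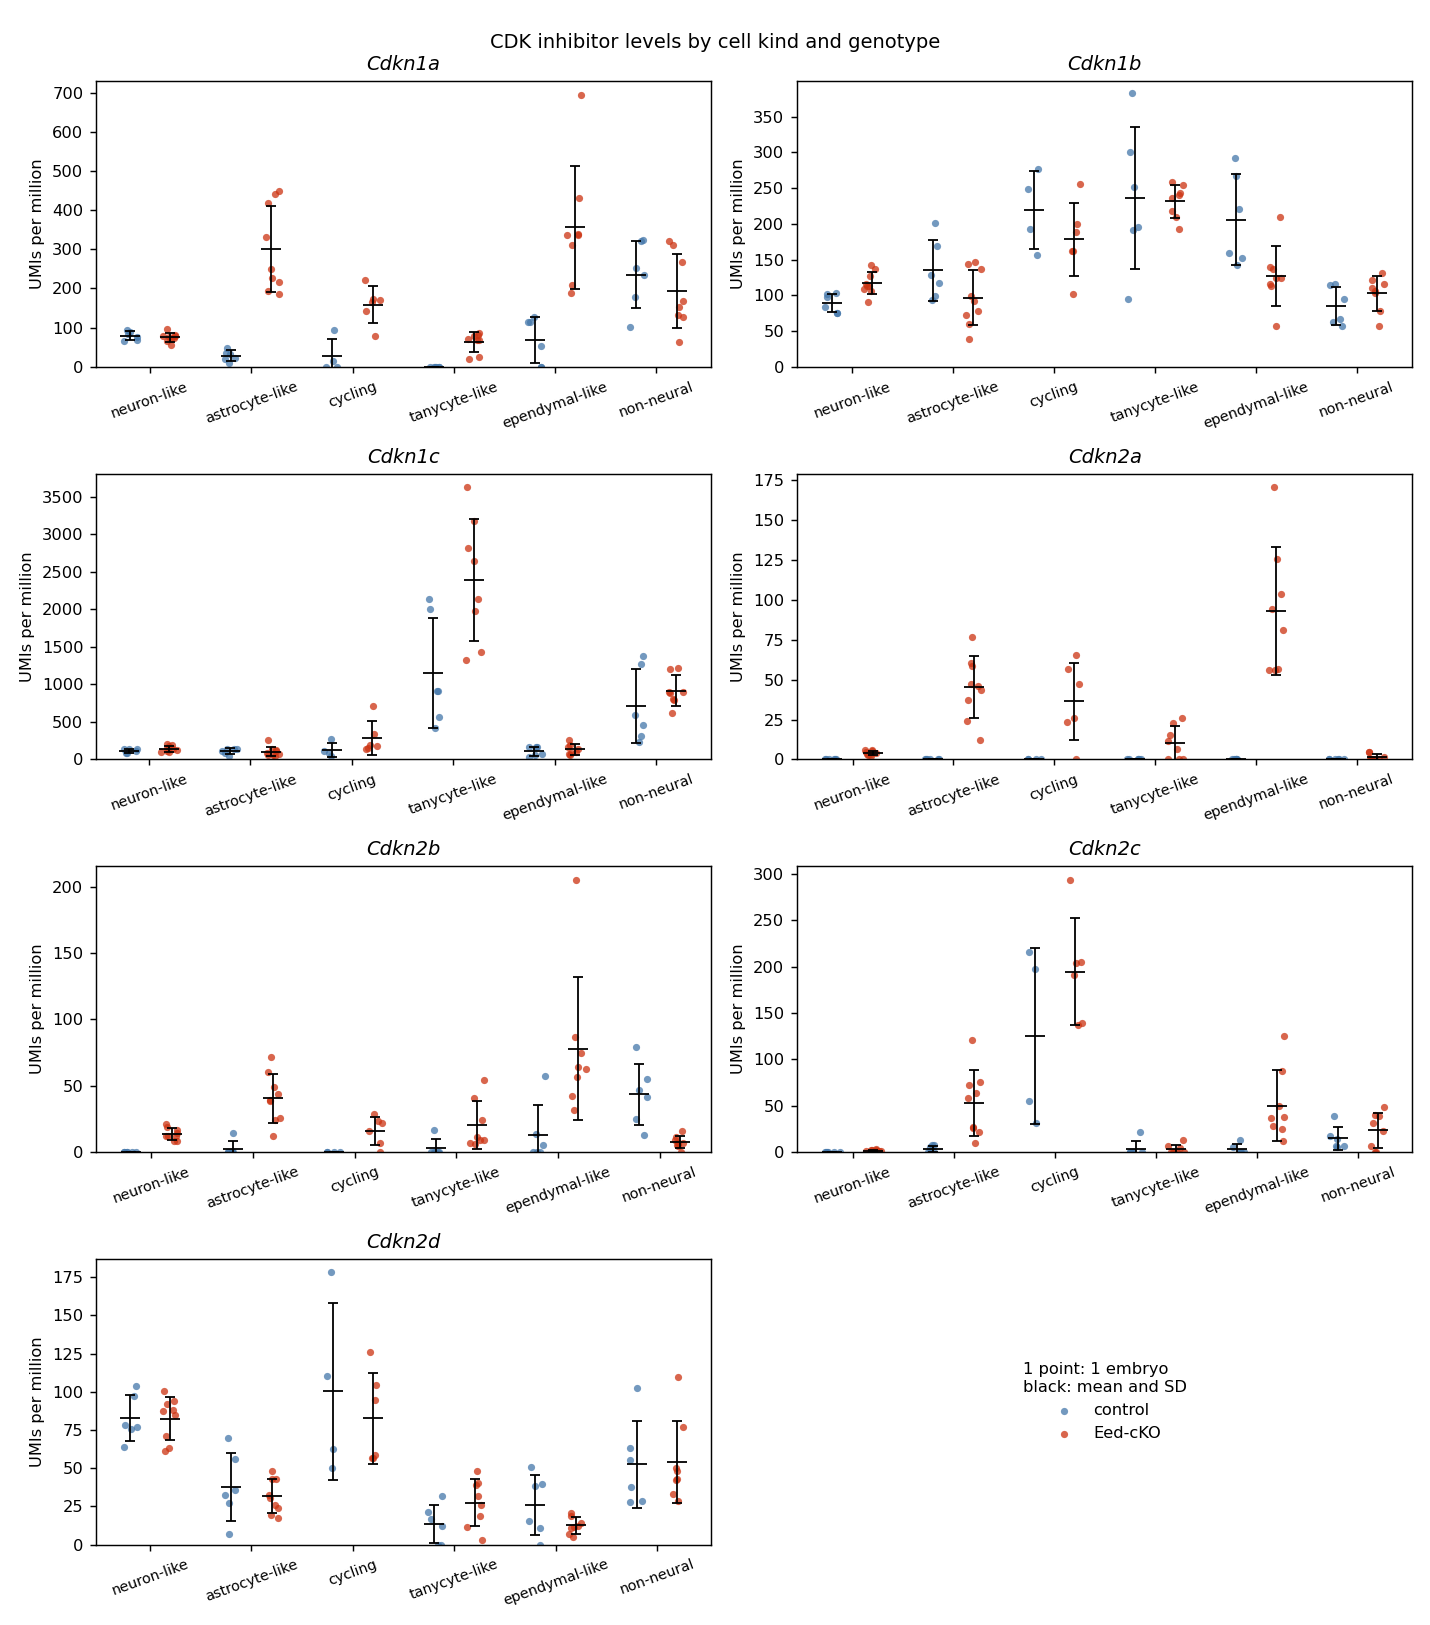
Level of each inhibitor in 6 cell types (x axis) as CPM (UMIs scaled to 1000000 UMIs of that cell type; y axis, from 0, 1 scale per gene), with 1 point per embryo, control in blue and Eed-cKO in red, and the mean and SD in black. Cdkn1a in astrocyte-like cells runs from 10.8 to 48.5 in control and from 185 to 448 in Eed-cKO, while its neuron-like levels overlap, and Cdkn2a is at 0 in every control group.

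Cdkn1a encodes p21, a Cip/Kip inhibitor and a well-known target of p53. In astrocyte-like cells, the control embryos had a lowest level of 10.8, a median of 27.3 and a highest level of 48.5 CPM, and the Eed-cKO embryos had 185, 249 and 448. All 9 mutants lay above all 6 controls, with a log2 fold change of 3.40 ± 0.28 (SE; n = 6 control and 9 Eed-cKO; edgeR quasi-likelihood test, adjusted p = 5.2e-13). Cells with at least 1 Cdkn1a UMI made up 6.61% ± 4.03 (SD) of astrocyte-like cells in control and 46.9% ± 11.5 in Eed-cKO embryos (exact two-sided permutation test, p = 0.0002, the smallest the design allows; 0.00163 adjusted over 49 pairs of gene and cell type). In neuron-like cells, the same gene ran from 65.3 to 94.1 (median 79.9) in control and from 55.5 to 95.6 (median 77.1) in Eed-cKO embryos, and the groups overlapped (log2 fold change -0.11 ± 0.10, edgeR adjusted p = 0.501). The genotype difference was 3.53 ± 0.27 larger on the log2 scale in astrocyte-like than in neuron-like cells of the same embryos (edgeR interaction with embryo as a block, adjusted p = 1.25e-17, where 3.09% of genes passed).

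In ependymal-like cells, Cdkn1a ran from 0 to 127 (median 83.9) in control and from 189 to 694 (median 336) in Eed-cKO embryos, again without overlap (log2 fold change 2.27 ± 0.34, n = 6 and 8, edgeR adjusted p = 3.6e-06). In tanycyte-like cells, no Cdkn1a UMI was found in any of the 6 controls and 77 were found in the mutants, whose levels ran from 20.3 to 85.4 (median 70.0). Against a floor of 3 UMIs over all controls this was at least 7.09-fold higher (n = 6 and 8, edgeR adjusted p = 3.76e-04). DESeq2 gave Cdkn1a in tanycyte-like cells no adjusted p. In cycling cells, the 4 controls with at least 10 such cells had 0, 0, 13.8 and 93.6 CPM and the 6 mutants had 78.0 to 222 (median 167), so that 5 of 6 mutants lay above the highest control. The log2 fold change there was 2.23 ± 0.51 (edgeR adjusted p = 0.0398). That call rested on few cells: it was lost in 8 of the 10 fits that left out 1 embryo (control 1, 4 or 6, or Eed-cKO 2, 3, 4, 5 or 8; adjusted p from 0.0658 to 0.223), whereas without control embryo 5, which held 9 of the 10 control UMIs, the log2 fold change was 4.65. The difference from neuron-like cells passed in ependymal-like (2.46 ± 0.30, adjusted p = 1.06e-11), cycling (2.55 ± 0.48, adjusted p = 2.73e-04) and tanycyte-like cells (adjusted p = 4.89e-06) in the same edgeR interaction, where 2.56%, 0.154% and 0.597% of genes passed. Non-neural cells ran from 101 to 323 in control and from 64.6 to 321 in Eed-cKO embryos and overlapped (edgeR adjusted p = 0.78).

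**Figure D2:**
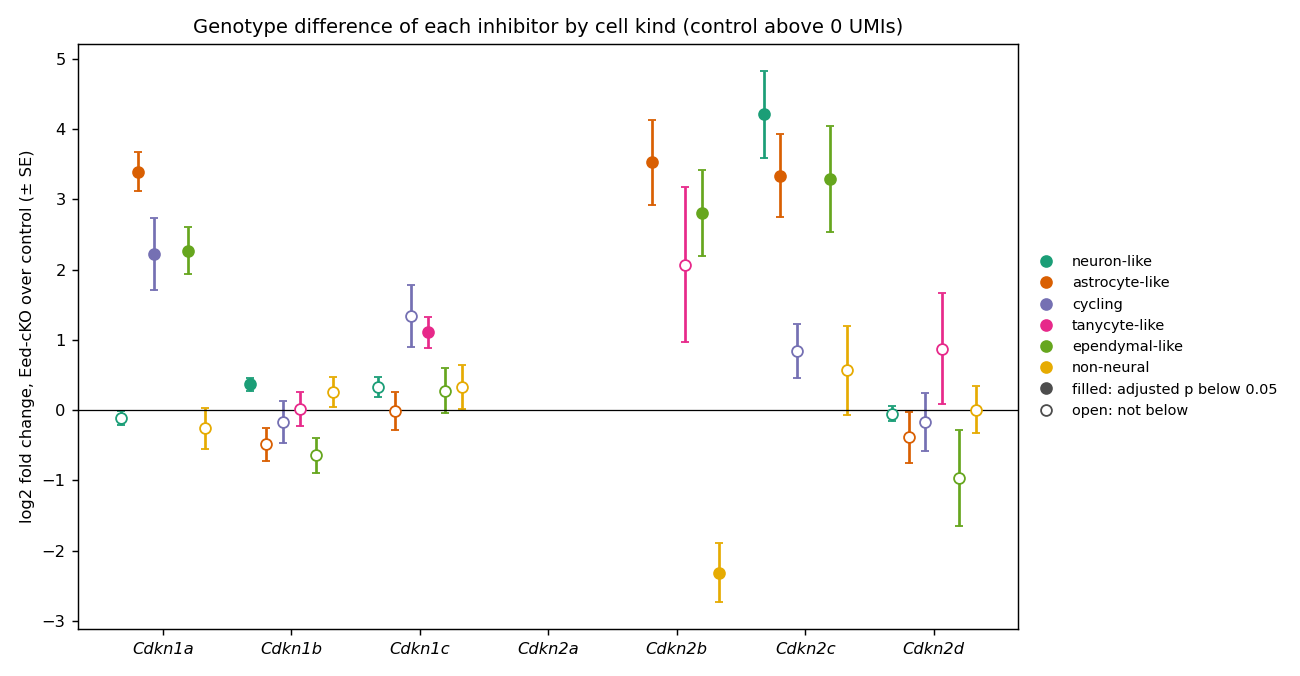
Log2 fold change of Eed-cKO over control with its SE (y axis) for each inhibitor (x axis) in 6 cell types (colours), filled where the edgeR adjusted p was below 0.05 and drawn only where the controls held at least 1 UMI. This leaves out Cdkn2a everywhere, Cdkn2b in neuron-like and cycling cells and Cdkn1a in tanycyte-like cells. Cdkn1a is 3.40 in astrocyte-like and -0.11 in neuron-like cells, and Cdkn2b is above 0 in the neural types drawn and -2.31 in non-neural cells.

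Because p53 is a known activator of Cdkn1a, 18 genes of p53 and its targets (the inhibitors left out) were counted in each cell type. In astrocyte-like cells 10 of 16 tested were higher and none lower, beside 8.32% of all genes called (5.05% higher and 3.27% lower), with a median log2 fold change of 1.09 over the list and -0.03 over all genes. Pmaip1 (1 against 99 UMIs, log2 fold change 5.55 ± 0.59) encodes a pro-apoptotic BH3-only protein, and Phlda3 (4.39 ± 0.49), Eda2r (4.06 ± 0.51) and Ccng1 (2.08 ± 0.25) are further p53 targets. Trp53 itself, named after its values were seen, was not called there (0.83 ± 0.33, edgeR adjusted p = 0.115). In neuron-like cells 4 of 17 were higher, beside 14.2% of all genes called (7.54% higher and 6.62% lower), namely Pmaip1 (1.44 ± 0.33), Btg2 (0.68 ± 0.14), Phlda3 (0.61 ± 0.18) and Mdm4 (0.19 ± 0.06), with a list median of 0.15. In ependymal-like cells 6 of 16 were higher and none lower, beside 5.04% of all genes called (3.63% higher and 1.41% lower), among them Pmaip1 (0 against 53 UMIs), Eda2r (3.28 ± 0.76), Phlda3 (1.76 ± 0.50) and Ccng1 (1.73 ± 0.26). In tanycyte-like cells Ccng1 was higher (2.51 ± 0.62) and Btg2 lower (-0.74 ± 0.20) of 13 tested, in cycling cells Pmaip1 alone of 16 was higher, and in non-neural cells Gadd45a alone of 15 was higher (1.21 ± 0.29).

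**Figure D3:**
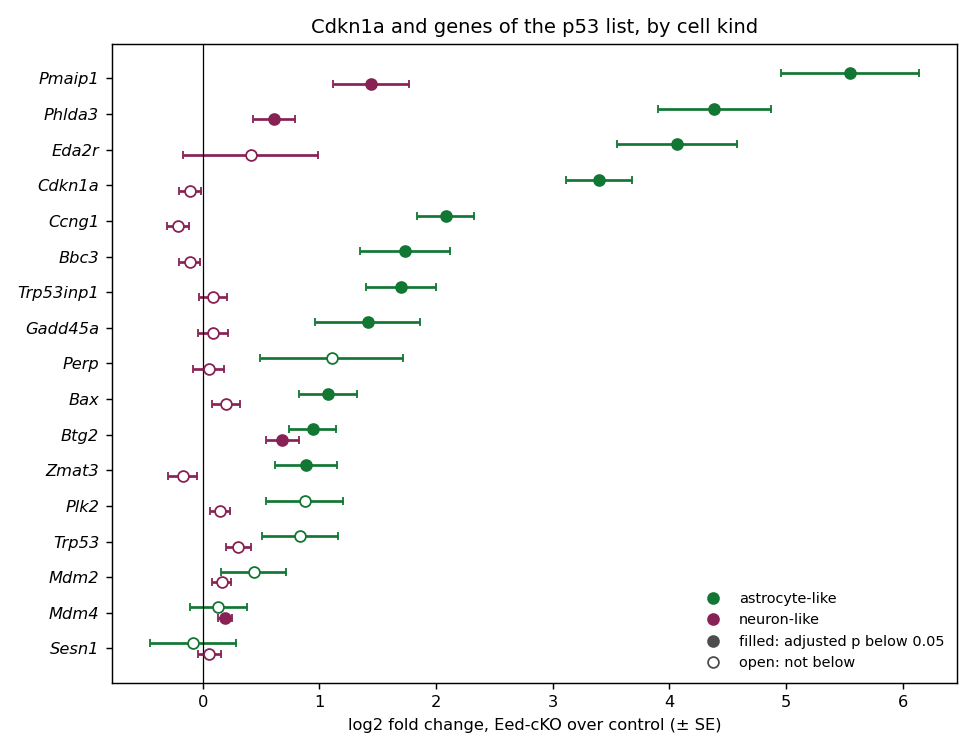
Log2 fold change of Eed-cKO over control with its SE (x axis) for Cdkn1a and the genes of the p53 list tested in both cell types (y axis), in astrocyte-like (green) and neuron-like cells (purple), filled where the edgeR adjusted p was below 0.05. In astrocyte-like cells Pmaip1, Phlda3, Eda2r and Cdkn1a lie at 5.55, 4.39, 4.06 and 3.40, and in neuron-like cells Cdkn1a lies at -0.11.

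Markers of other cell types moved with these results. The 7 vascular leptomeningeal markers summed to 16.7 to 40.6 CPM in astrocyte-like cells of control and to 269 to 629 in Eed-cKO embryos, all 4 tested (Col1a2, Dcn, Lum and Igf2) were called as higher, and Dcn was at 0 in control. In ependymal-like cells the same sum ran from 0 to 560 and from 550 to 1276, with 3 of 5 tested called as higher. In cycling cells it ran from 0 to 59.3 and from 69.4 to 653, with Igf2 called of 2 tested, and in tanycyte-like cells Igf2 was called as higher and Col1a1 as lower of 4. In neuron-like cells it ran from 5.92 to 12.2 and from 11.2 to 45.2, with 5 of 6 called as higher. The astrocyte markers Slc1a2 and Aldoc and the tanycyte markers Rax, Lhx2 and Adm were also called as higher in neuron-like cells, and the neuron markers Stmn2, Syt1 and Gap43 as lower. The 9 tanycyte markers summed to 240 to 538 and to 652.05 to 1857 in astrocyte-like cells, with Col23a1, Crym and Lhx2 called as higher of 8 tested. The part of these markers in the results on Cdkn1a, Cdkn1b and the Ink4 genes was not tested.

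Cdkn1b encodes p27, which is known to hold newly formed neurons out of the cycle. In neuron-like cells it ran from 74.8 to 103 (median 90.2) in control and from 91.0 to 143 (median 113) in Eed-cKO embryos, and 8 of 9 mutants lay above the highest control. The log2 fold change was 0.37 ± 0.10 (edgeR adjusted p = 0.00971), and under limma-voom with TREAT the adjusted p was 0.237. In astrocyte-like cells the sign was opposite and no call was made, with 94.0 to 201 (median 123) in control and 39.1 to 147 (median 92.5) in Eed-cKO embryos (log2 fold change -0.48 ± 0.24, edgeR adjusted p = 0.248). Ependymal-like cells likewise gave -0.64 ± 0.26 (edgeR adjusted p = 0.16), with 7 of 8 mutants below the lowest control. The genotype difference nonetheless differed from that of neuron-like cells, by -0.90 ± 0.23 in astrocyte-like (adjusted p = 0.0106) and by -0.99 ± 0.28 in ependymal-like cells (adjusted p = 0.0251) in the edgeR interaction. Tanycyte-like cells had the highest mean level of Cdkn1b in both genotypes, 236 ± 99.4 (SD) in control and 232 ± 23.1 in Eed-cKO embryos, overlapping the cycling cells that came next.

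Cdkn1c encodes p57, an imprinted inhibitor that is expressed from the maternal allele. It was a gene of tanycyte-like and of non-neural cells. In control embryos the mean was 1157 ± 732 (SD) CPM in tanycyte-like cells, 707 ± 492 in non-neural cells, and 125 or less in cycling, neuron-like, ependymal-like and astrocyte-like cells. Tanycyte-like cells of control embryos ran from 420.1 to 2135 (median 914), and those of Eed-cKO embryos from 1319 to 3625 (median 2389). The groups overlapped, with 5 of 8 mutants above the highest control, and the log2 fold change was 1.11 ± 0.22 (edgeR adjusted p = 0.00198). In the mutants no tanycyte-like value overlapped the non-neural ones, which came next (624 to 1218). The share of tanycyte-like cells with a Cdkn1c UMI was 56.8% ± 16.3 in control and 86.5% ± 5.57 in Eed-cKO embryos (exact two-sided permutation test, p = 0.00167, 0.00546 adjusted), and in cells thinned to 2000 UMIs the difference of 28.2 percentage points did not pass (adjusted p = 0.0526). The call on the level was lost with DESeq2 (log2 fold change 1.04, adjusted p = 0.23) and with limma-voom and TREAT (1.35, adjusted p = 0.0588). Beside the 2 inhibitors called in tanycyte-like cells, Cdkn1a and Cdkn1c of 5 tested, 0.921% of all genes were called there, 0.644% as higher and 0.277% as lower.

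In neuron-like cells Cdkn1c ran from 83.9 to 134 (median 124) in control and from 102 to 208 (median 134) in Eed-cKO embryos, with no call at the level of embryos (log2 fold change 0.33 ± 0.15, edgeR adjusted p = 0.14). With libraries or litters as samples, or with neurons chosen cell by cell, it passed (log2 fold changes 0.41, 0.50 and 0.46, adjusted p = 9.3e-04, 0.0479 and 0.0449). Libraries of 1 embryo are pieces of the same hypothalamus and not independent samples, so the adjusted p with libraries overstates the evidence. The difference was larger in tanycyte-like than in neuron-like cells by 0.88 ± 0.18 (edgeR interaction, adjusted p = 4.76e-04). In cycling cells the log2 fold change was 1.34 ± 0.45 without a call (edgeR adjusted p = 0.254), and 165 of the 275 UMIs of the mutants came from embryo 3. Among non-neural cells, the vascular leptomeningeal-like cells held most of it, with 2188 CPM in 89 control cells and 1451 in 268 Eed-cKO cells. Of the 9 genes listed for the imprinted cluster around Cdkn1c, Kcnq1ot1, the antisense RNA that silences the paternal copy, was the only one called in tanycyte-like cells (1.42 ± 0.33, edgeR adjusted p = 0.0147; 5 tested), and Slc22a18 (2.35 ± 0.63), Phlda2 (2.14 ± 0.50) and Kcnq1ot1 (0.41 ± 0.11) were higher in neuron-like cells (8 tested). Slc22a18 rested on 5 against 23 UMIs and Phlda2 on 9 against 34. Over all genes, 0.644% were called as higher in tanycyte-like and 7.54% in neuron-like cells.

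The rise of Cdkn1a and Cdkn1c over all neural cells was split, by arithmetic on group means and without a test, into a part from the changed share of each cell type in the UMIs and a part from the level within it. Neuron-like cells made up 91.1% ± 4.67 (SD) of neural UMIs in control and 79.9% ± 6.49 in Eed-cKO embryos, and tanycyte-like cells 0.811% ± 0.273 and 3.04% ± 1.2. Of the 108 CPM by which Cdkn1c was higher, 37.9% came from shares, and the larger share of tanycyte-like cells alone gave 39.3. The level within neuron-like cells gave 26 and the level within tanycyte-like cells gave 23.3. Cells of unnamed clusters gave 10.9 by their share and 15.2 by their level, and 2 of those clusters, with 223 and 61 mutant cells, held no control cell. The pituitary marker Cga was among the leading genes of both. The cluster of 223 cells had 10 neuron and 3 pituitary markers raised, and that of 61 had 0 and 5. Whether these cells are neural was not tested. Cdkn1a was higher by 22, of which 9.54% came from shares. Its level within astrocyte-like cells gave 11.1 and that within ependymal-like cells gave 6.73, while neuron-like cells gave -3.60.

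**Figure D4:**
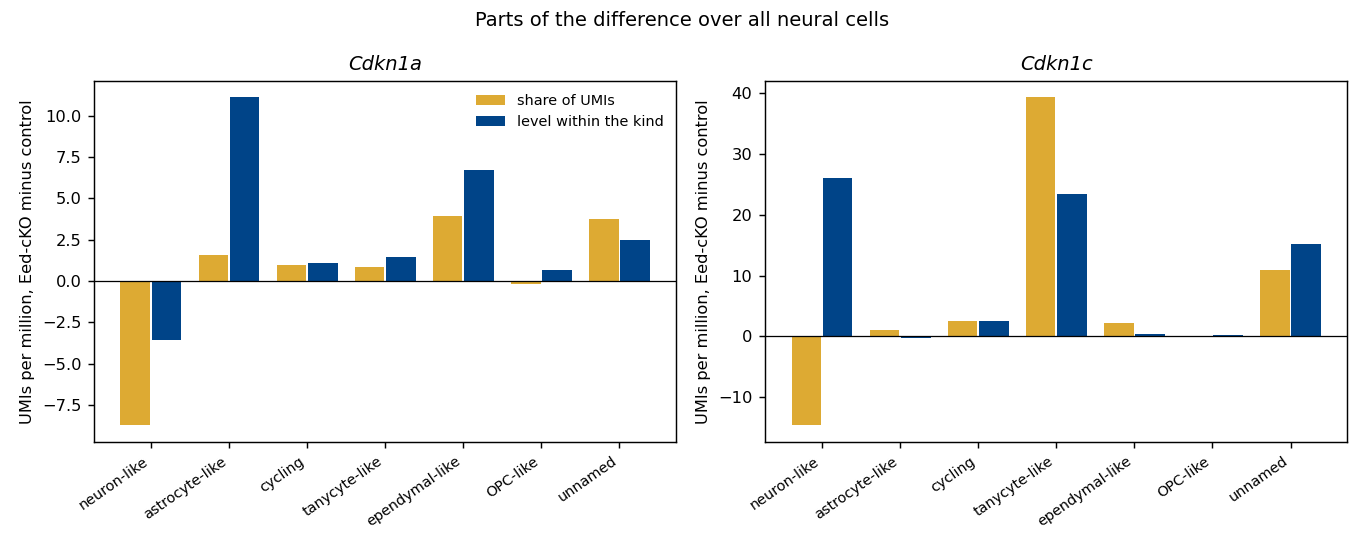
Difference of Cdkn1a (left) and Cdkn1c (right) over all neural cells, Eed-cKO minus control in CPM (y axis), split by cell type (x axis) into the part from the share of UMIs (yellow) and the part from the level within the type (blue). For Cdkn1a the level within astrocyte-like cells is the tallest bar at 11.1, and for Cdkn1c the share of tanycyte-like cells is the tallest at 39.3.

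Cdkn2a encodes p16Ink4a and, from another reading frame, p19Arf, which restrains Mdm2 and so stabilises p53. Not 1 UMI of Cdkn2a was found in 6839 neural cells of control embryos, which by a floor of 3 cells allows a share of up to 0.0439% of cells with a UMI at this depth and sets no limit on cells that express the gene, and 257 of 6454 neural cells of Eed-cKO embryos held 339 UMIs (3.98%, exact Clopper-Pearson 95% interval 3.52 to 4.49). Non-neural Eed-cKO cells, 268 of them vascular leptomeningeal-like, gave 4 of 481 cells (0.832%, 0.227 to 2.12), at a median depth of 3708 UMIs per cell against 4425 in neural cells. Both intervals pool the cells of all Eed-cKO embryos, so they cover counting error alone and not the spread between embryos. Whether Cre acted in these non-neural cells was not tested. In ependymal-like cells the mutants ran from 56.0 to 171 CPM (median 87.7), in astrocyte-like cells from 12.0 to 76.6 (median 45.9) and in neuron-like cells from 1.92 to 5.82 (median 4.06). All 9 mutant embryos held Cdkn2a in neuron-like cells, and all controls were at 0. Against a floor of 3 UMIs over the controls, Cdkn2a was at least 45.6-fold higher in neuron-like cells (edgeR adjusted p = 1.92e-08), at least 21.1-fold higher in astrocyte-like cells (5.45e-08) and at least 15.3-fold higher in ependymal-like cells (3.94e-07). In ependymal-like cells 26.7% ± 12.7 (SD, n = 8) of cells held a UMI, in astrocyte-like cells 15.7% ± 8.46 (n = 9) and in neuron-like cells 1.88% ± 0.693 (n = 9). Cycling cells had 0 against 32 UMIs, with 1 of 6 mutants at 0 (edgeR adjusted p = 0.14), and tanycyte-like cells 0 against 13, too few to be tested. With all controls at 0, whether the genotype difference of Cdkn2a differed between cell types could not be judged.

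Cdkn2b encodes p15, and its difference had opposite signs in neural and in non-neural cells. In neuron-like cells it was at 0 in all 6 controls and ran from 8.39 to 21 (median 12.2) in the 9 mutants, at least 144-fold higher against the same floor (edgeR adjusted p = 6.18e-12), in 5.69% ± 2.07 (SD) of cells. Over all neural cells of control embryos, 10 Cdkn2b UMIs were found in 8 of 6839 cells. Astrocyte-like cells ran from 12.0 to 71.7 (median 39.4) in the mutants, and of the controls only embryo 3 held any, with 4 UMIs (log2 fold change 3.53 ± 0.60, edgeR adjusted p = 3.05e-05, and 5.92 without that embryo). Ependymal-like cells ran from 0 to 57.3 (median 2.75) in control and from 31.8 to 205 (median 63.5) in Eed-cKO embryos, with 5 of 8 mutants above the highest control (log2 fold change 2.81 ± 0.61, edgeR adjusted p = 0.00205, and 3.84 without control embryo 2). The genotype difference departed from that of neuron-like cells in astrocyte-like (edgeR interaction, adjusted p = 0.0226) and ependymal-like cells (adjusted p = 0.00108), although with 0 UMIs in control neurons its size cannot be given. In cycling cells 0 and 13 UMIs were too few to be tested.

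Of all cell types, non-neural cells had the highest mean level of Cdkn2b in control embryos, and there the mutants had less. Controls ran from 13 to 79.3 (median 44.3) and Eed-cKO embryos from 0 to 15.7 (median 7), and 7 of 8 mutants lay below the lowest control. The log2 fold change was -2.31 ± 0.42 (n = 6 and 8, edgeR adjusted p = 0.00356), beside 2.89% of all genes called in non-neural cells, 1.5% as higher and 1.39% as lower. The share of cells with a UMI was 11.6% ± 3.94 (SD) in control and 2.98% ± 1.54 in Eed-cKO embryos (exact two-sided permutation test, p = 3.33e-04, the smallest the design allows; 0.00204 adjusted), and after thinning to 2000 UMIs the adjusted p was 0.0712. The direction differed from that in neuron-like cells (edgeR interaction, adjusted p = 3.75e-09, where 1.54% of genes passed). All 68 control UMIs came from endothelial-like cells, the lining of blood vessels, which made up 150 of the 347 control and 123 of the 481 Eed-cKO non-neural cells. The 8 endothelial markers summed to 3105 to 5081 CPM of non-neural cells in control and to 1812 to 2881 in Eed-cKO embryos, with Flt1, Egfl7, Ly6c1 and Esam called as lower, and 6 of 8 microglia markers were called as lower as well. In endothelial-like cells alone, a comparison chosen after the data were seen, Cdkn2b ran from 30.2 to 148 (median 81.3) in 6 controls and from 12.4 to 52.5 (median 23.7) in 6 mutants, and the call ended (log2 fold change -1.65 ± 0.46, edgeR adjusted p = 0.161, where 0.306% of genes were called). Cdkn2a had no UMI in control non-neural cells, and Cdkn1a, Cdkn1b, Cdkn1c, Cdkn2c and Cdkn2d were not called there, with log2 fold changes from -0.26 to 0.57.

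Cdkn2c encodes p18, and its level was highest in cycling cells of both genotypes. In control embryos its mean was 125 ± 95.3 (SD) CPM in cycling cells, 14.7 ± 12.6 in non-neural cells and 0.0575 ± 0.141 in neuron-like cells. The 4 controls with at least 10 cycling cells had 31.2, 55.3, 198 and 216, and the 6 mutants had 137 to 293 (median 197), overlapping without a call (log2 fold change 0.84 ± 0.38, edgeR adjusted p = 0.505). Astrocyte-like cells ran from 0 to 7.19 (median 2.79) in control and from 9.57 to 121 (median 58.6) in Eed-cKO embryos without overlap (log2 fold change 3.34 ± 0.59, edgeR adjusted p = 5.11e-05). When astrocytes were chosen cell by cell, the same log2 fold change was 1.66 (adjusted p = 0.00314). Neuron-like cells held 2 UMIs in control, both in embryo 5, and 43 in the mutants (log2 fold change 4.21 ± 0.62, edgeR adjusted p = 2.01e-05, and 5.70 without that embryo). Ependymal-like cells ran from 0 to 12.7 in control and from 11.4 to 126 in Eed-cKO embryos (log2 fold change 3.29 ± 0.76, edgeR adjusted p = 0.00348, and adjusted p = 0.0793 with libraries as samples). Of the 359 Cdkn2c UMIs in mutant neural cells, the cycling cells of the 6 embryos tested held 152. Non-neural cells gave 0.57 ± 0.63 without a call, and the difference from neuron-like cells was -3.57 ± 0.83 on the log2 scale (edgeR interaction, adjusted p = 0.0228).

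Cdkn2d encodes p19Ink4d, an inhibitor known from postmitotic neurons, and it was the member without a call in any cell type. Neuron-like cells ran from 63.7 to 104 (median 77.6) in control and from 61.3 to 101 (median 87.2) in Eed-cKO embryos (log2 fold change -0.05 ± 0.11, edgeR adjusted p = 0.827). Cycling and neuron-like cells had the highest means in both genotypes, 100.2 ± 58.1 and 82.6 ± 15 (SD) in control, and overlapped. Over the other cell types its log2 fold changes ran from -0.97 in ependymal-like to 0.87 in tanycyte-like cells, with edgeR adjusted p of 0.557 and 0.795. The members called were thus 4 of 7 in neuron-like cells, beside 14.2% of all genes, 4 of 7 in astrocyte-like cells, beside 8.32%, and 4 of 7 in ependymal-like cells, beside 5.04%. In cycling cells 1 of 6 was called, beside 0.3% of all genes (0.248% as higher and 0.0517% as lower), and in non-neural cells 1 of 6, beside 2.89%.

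Some cell types were not made of the same clusters in both genotypes. Among ependymal-like cells, 120 of the 224 mutant cells formed a cluster without a control cell. That cluster raised 7 ependymal and 8 astrocyte markers, and none of its leading genes was an ependymal marker. Another ependymal-like cluster, of 65 control and 37 mutant cells, raised 6 and 8 and likewise led with none. Among neuron-like cells 2 clusters with 1086 and 511 mutant cells held 52 and 16 control cells, whereas 2 others with 839 and 342 control cells held 88 and 37 mutant cells. An astrocyte-like cluster of 25 and a tanycyte-like cluster of 24 mutant cells held no control cell. Without the clusters that were over 90% of 1 genotype, a setting picked with the data in view, the count over all neural cells went from 6 to 5, with Cdkn1a lost (adjusted p = 0.0669), the neuron-like and astrocyte-like counts were 4 as before, and in ependymal-like cells 2 of the 4 members that could still be tested were called, Cdkn1a (adjusted p = 0.00603) and Cdkn2a (adjusted p = 0.0213).

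The question whether cells with Cdkn2a or Cdkn2b still cycle, and whether they are cells with Hox transcripts, was addressed per cell in the 6454 neural cells of the 9 mutants. The observed number of cells with both transcripts was set against the number expected if both were independent within strata of embryo, cell type and depth quartile, and tested over embryos by an exact two-sided sign permutation whose smallest p is 0.00391, adjusted over 10 pairs. Cdkn2a and Cdkn2b were found together in 63 cells where 38.2 were expected, a ratio of 1.65 that was above 1 in 9 of 9 embryos (exact p = 0.00391, adjusted 0.013). Of 257 cells with Cdkn2a, 226 (87.9%) held a Hox UMI where 158 were expected (ratio 1.43, 9 of 9 embryos, exact p = 0.00391, adjusted 0.013), and of 420 cells with Cdkn2b, 348 (82.9%) did where 231 were expected (ratio 1.5, 9 of 9 embryos, same p). Hox UMIs were found in 46.3% of all these cells. With strata of cluster in place of cell type, chosen after the data were seen, the ratios were smaller, at 1.31, 1.14 and 1.10, and still passed (adjusted p = 0.039, 0.0196 and 0.0196). In cells thinned to 2000 UMIs, Cdkn2b with Hox passed (ratio 1.57, adjusted p = 0.0391), while Cdkn2a with Hox (1.42, adjusted p = 0.078) and Cdkn2a with Cdkn2b (12 cells against 7.82 expected, adjusted p = 0.396) did not.

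A cell was counted as cycling when it held UMIs of at least 2 of 15 cycling genes, which 332 of the 6454 cells did. Cdkn2a was found in 47 of them where 42.5 were expected (ratio 1.11, exact p = 0.43, adjusted 0.614), and Cdkn2b in 31 where 36.7 were expected (ratio 0.85, exact p = 0.219, adjusted 0.365). Neither pair passed, and cells with both an Ink4 transcript and cycling genes did occur. The cell type strata set apart the clusters named by these same genes, where nearly every cell counts as cycling. Cells there pull the ratios toward 1, so these ratios do not show whether cells with Cdkn2a or Cdkn2b cycle. In the clusters named cycling by these genes, where 129 of 134 mutant cells held at least 2 of them, 23 cells had Cdkn2a and 13 had Cdkn2b. When 3 cycling genes were asked for, Cdkn2b was found in 19 cells where 26.8 were expected, with 0 embryos above and 8 below (ratio 0.71, exact p = 0.00781, adjusted 0.0195). When cells were compared within depth alone and not within cell type, Cdkn2a was found with cycling genes in 47 cells against 19.6 expected (ratio 2.40, adjusted p = 0.0234) and Cdkn2c in 98 against 16.6 (ratio 5.92, adjusted p = 0.00978). Within cell types, Cdkn2c (1.11), Cdkn2d (1.13), Cdkn1a (1.01), Cdkn1b (1.01) and Cdkn1c (0.99) did not pass, with adjusted p from 0.078 to 0.742. The same limit of the strata holds for them.

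**Figure D5:**
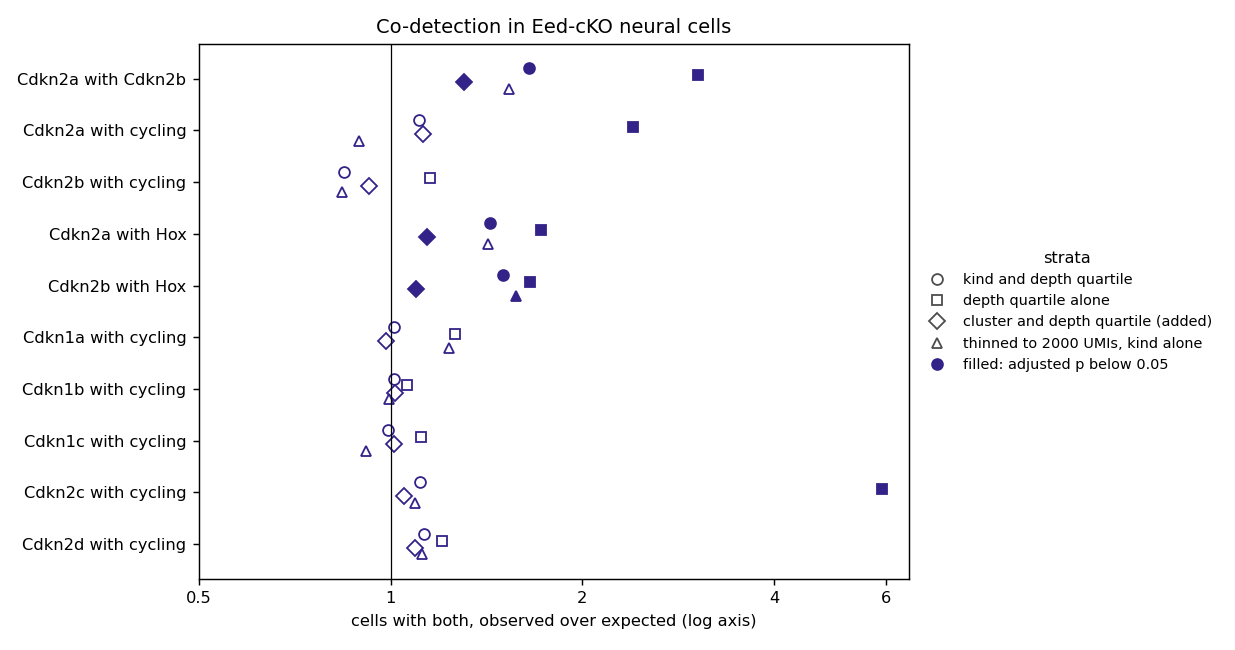
Observed over expected number of Eed-cKO neural cells with both transcripts (x axis, log scale) for 10 pairs (y axis), with 1 symbol per way of forming strata, filled where the adjusted p of the exact sign permutation over 9 embryos was below 0.05. Cdkn2a with Hox lies at 1.43 and Cdkn2b with Hox at 1.5 within cell type and depth, and Cdkn2c with cycling genes moves from 1.11 within cell types to 5.92 within depth alone.

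The genes on which the inhibitors act were counted by lists. Over all genes, 27.7% were called in all neural cells (15.3% as higher and 12.4% as lower). Within cell types the shares were 14.2% in neuron-like, 8.32% in astrocyte-like, 5.04% in ependymal-like, 0.3% in cycling, 0.921% in tanycyte-like and 2.89% in non-neural cells. Of the cyclins and kinases, 11 of 17 tested were higher and none lower over all neural cells, led by the D-type cyclins Ccnd1 (log2 fold change 3.09 ± 0.14) and Ccnd2 (2.93 ± 0.18) that pair with CDK4 and CDK6, by the mitotic kinase Cdk1 (1.77 ± 0.33) and by its partner Ccnb1 (1.75 ± 0.30). Cycling cells made up 1.04% of neural UMIs in control and 2.33% in Eed-cKO embryos. Within cycling cells Cdk1 (0.68 ± 0.27, edgeR adjusted p = 0.404) and Ccnb1 (0.67 ± 0.28, edgeR adjusted p = 0.447) were not called. The part of the changed share in these rises was not tested. Within cell types mainly the D-type cyclins passed: Ccnd1 and Ccnd2 in neuron-like (3.16 ± 0.17 and 2.38 ± 0.15; 18 tested), astrocyte-like (3.66 ± 0.20 and 2.61 ± 0.21; 11 tested) and ependymal-like cells (3.69 ± 0.28 and 3.56 ± 0.25; 13 tested), and Ccnd1 alone in cycling (1.61 ± 0.31; 18 tested) and tanycyte-like cells (1.05 ± 0.21; 9 tested). In non-neural cells Ccnd1 was lower (-1.19 ± 0.22; 19 tested), as Cdkn2b was. Of the Rb and E2F list, E2f1 (1.31 ± 0.28), Rbl1 (0.38 ± 0.14) and E2f5 (0.34 ± 0.12) of 11 were higher over all neural cells, and E2f2 (1.64 ± 0.43) of 12 in neuron-like cells. Of the polycomb list, 4 of 19 tested were higher over all neural cells, among them the PRC1 genes Bmi1 (1.3 ± 0.08) and Cbx8 (0.96 ± 0.11), and Eed was lower (-0.45 ± 0.08). Over all neural cells, the Rb and E2F list and the polycomb list were both called at about the share of all genes. Bmi1, known as a repressor of the Cdkn2a locus, was also higher in neuron-like (1.36 ± 0.08), astrocyte-like (1.67 ± 0.25), cycling (1.62 ± 0.37) and ependymal-like cells (2.05 ± 0.35). Of 4 genes near the Cdkn2a and Cdkn2b locus, Elavl2 was lower (-0.31 ± 0.07) and Dmrta1 higher (5 against 17 UMIs, 1.93 ± 0.66) of 3 tested in neuron-like cells. Every Hox gene tested was higher over all neural (25 of 25), neuron-like (31 of 31), astrocyte-like (26 of 26) and ependymal-like cells (10 of 10), and none passed of 6 in cycling, 3 in tanycyte-like and 2 in non-neural cells. Hox UMIs nonetheless went from 0 in control to 252 in Eed-cKO cycling cells, from 0 to 185 in tanycyte-like and from 2 to 140 in non-neural cells. The median log2 fold changes of the Hox genes tested there were 4.52, 3.61 and 4.25.

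The genes whose levels ran most like those of an inhibitor were listed over 14 sums of 7 cell types by 2 genotypes, among 13792 genes with at least 100 UMIs. These points share cells and depth between genes, and the correlations are a description. For Cdkn2a they were Hoxd13 (Pearson r = 0.98), Barx1 (0.98), Hoxd8 (0.96), Hoxc6 (0.96) and Hand2 (0.96), which all encode developmental transcription factors. For Cdkn2b they were Bag3 (0.87), Foxf1 (0.87), Twist1 (0.85), Foxl2os (0.85) and Egr4 (0.85). For Cdkn2c they were Psrc1 (0.93), Pcna (0.90), 2810417H13Rik (0.89), 1190002F15Rik (0.89) and Spag5 (0.89), of which Pcna is the sliding clamp of DNA replication. For Cdkn1c they were Gpc3 (0.93), Phactr2 (0.92), Npr1 (0.89), Stra6 (0.89) and Ino80d (0.89).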

How the data were processed

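The table of single-cell UMI counts (raw whole numbers per gene and cell) was deposited by the authors. Per the labels and the methods, libraries were made with the SureCell WTA 3′ kit, and reads were aligned to mm10 with STAR 2.5.2b and SAMtools 1.3, and the table held only cells that had passed the authors' filters (lowest 601 UMIs per cell). The strand setting and the annotation version of the counting are not given in the sources used here. The 7 members, the gene lists and the tests were chosen with earlier results of these data known.

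Cells were clustered with scanpy 1.11.5 (2000 variable genes without the members and Hox genes, 30 components, 15 neighbours, Leiden resolution 1), and clusters took a name only with at least 3 raised markers. Doublets were treated only in an alternative, which left out the 6% of cells with the highest doublet score in each library. UMIs were summed per embryo and cell type, for embryos with at least 10 such cells. Genes with at least 15 UMIs over the sums and 2 in 1 sum, and for all neural cells a median log2 CPM of at least 1.5, were tested with the edgeR 4.0.16 quasi-likelihood test (R 4.3.3, TMM, Benjamini-Hochberg over all genes tested, threshold 0.05), with the SE taken as the size of the log2 fold change over the root of F. The genotype by cell type interaction had the embryo as a block. DESeq2 1.42.0 and limma 3.58.1 gave alternatives. The comparison in ependymal-like cells and the fit without the control library of most cells were added once the data had been seen. Intervals and floors (3 UMIs) cover counting error only. All 7 members, and of each pathway list the genes called with up to 4 largest changes, were named by rule. The procedures were tested on simulated counts. Depth per embryo ran from 658175 to 7487417 UMIs.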

Additional observations from a re-analysis of the deposited data

Results flagged for a closer look

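In 10 of the 88 groups of 4 to 10 embryos tested, 1 embryo lay far from the others by Dixon's criterion. Its nominal rate of 1 in 20 groups holds for normally distributed values. Where all embryos but 1 are at 0 the criterion is always met, so the count cannot be set against that rate. Of the control embryos, embryo 5 had 0.345 CPM of Cdkn2c in neuron-like cells (2 UMIs, all others at 0), 93.6 of Cdkn1a in cycling cells (9 UMIs, next 13.8) and 38.4 of Cdkn2c in non-neural cells (next 17.3). Control embryo 3 had 14.3 of Cdkn2b in astrocyte-like cells (4 UMIs) and 16.8 in tanycyte-like cells (1 UMI), with all other controls at 0 in both. Control embryo 4 had 21.2 of Cdkn2c in tanycyte-like cells (1 UMI), and control embryo 2 had 57.3 of Cdkn2b in ependymal-like cells (3 UMIs, next 13.3). Of the Eed-cKO embryos, embryo 8 had 261 of Cdkn1c in astrocyte-like cells (next 134), embryo 3 had 718 of Cdkn1c in cycling cells (next 341), and embryo 5 had 205 of Cdkn2b in ependymal-like cells (next 86.9).

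The genotype difference departed from that in neuron-like cells in 11 of 35 pairs of gene and cell type (edgeR interaction). Over all genes 3.09% passed in astrocyte-like, 0.154% in cycling, 0.597% in tanycyte-like, 2.56% in ependymal-like and 1.54% in non-neural cells. Only 24 of the 35 pairs had UMIs in every sum of genotype and cell type. Cdkn2a in every cell type and Cdkn2b in cycling cells had no control UMI on either side, so those pairs could not be judged. For Cdkn1a it was larger by 3.53 on the log2 scale in astrocyte-like, by 2.55 in cycling and by 2.46 in ependymal-like cells, and passed in tanycyte-like cells without a size that can be given, since controls were at 0 (adjusted p = 4.89e-06). For Cdkn1b the differences were -0.90 in astrocyte-like and -0.99 in ependymal-like cells, where neither cell type alone passed the test. Cdkn1c departed by 0.88 in tanycyte-like cells and Cdkn2c by -3.57 in non-neural cells. Cdkn2b departed in astrocyte-like (adjusted p = 0.0226), ependymal-like (adjusted p = 0.00108) and non-neural cells (adjusted p = 3.75e-09).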

How the results depend on the processing

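Cycling, tanycyte-like and ependymal-like cells were few (64, 91 and 113 in control), litters held 1 genotype each, and cell types were set here from markers, which limits what these groups can show. The counts of members called in all neural, neuron-like and astrocyte-like cells stayed within 1.5 times the reported ones under the alternatives that could be fitted. In cycling cells the count was 0 under library size alone and under limma-voom with TREAT, and 0 to 1 when 1 embryo was left out. In tanycyte-like cells it was 0 under DESeq2 and 1 under TREAT, and in ependymal-like cells 2 without clusters mostly of 1 genotype, where fewer members could be tested. In non-neural cells it was 2 when cells were set one by one and 0 in endothelial-like cells alone. The share of cells with a UMI differed for 18 of 49 pairs of gene and cell type, 20 after thinning and 11 when 2 UMIs were asked for. Except where fewer genes or cells were tested, the cause was not tested.

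Higher against lower calls over all genes were 1920 and 1562 in all neural cells (2303 and 1097 with library size alone), 1140 and 1000 in neuron-like cells (1398 and 726), 24 and 5 in cycling cells (19 and 8), and 65 and 28 in tanycyte-like cells (36 and 34, and 19 and 22 with DESeq2). TREAT gave 1099 and 397, 603 and 241, 3 and 3, and 4 and 4 in the same order.

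Co-detection moved as follows. After thinning, Cdkn2a with Cdkn2b (1.54) and with Hox (1.42) no longer passed, Cdkn2a with cycling turned to 0.892 and Cdkn1b with cycling to 0.995. With depth alone as strata, Cdkn2a (2.40) and Cdkn2c (5.92) with cycling passed, and Cdkn2b (1.15) and Cdkn1c (1.12) turned above 1. Cdkn2b with at least 3 cycling genes passed at 0.71. Cdkn1c turned to 1.02 with 1 cycling gene, 1.00 without likely doublets and 1.01 with cluster strata, where Cdkn1a turned to 0.983. With 1 embryo left out, the ratios with cycling ran from 1.08 to 1.13 for Cdkn2c, which passed without Eed-cKO embryo 6, and from 0.99 to 1.02 for Cdkn1a, 0.983 to 1.03 for Cdkn1b and 0.97 to 1.01 for Cdkn1c.

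The reversals among single log2 fold changes came from values that were not called and gave none that was called, except Cdkn1c in astrocyte-like cells set cell by cell (1.28, adjusted p = 0.00125). Cdkn1c in astrocyte-like cells was otherwise 0.11 with libraries, 0.088 with litters and 0.077 without the control library of most cells. Cdkn2d in neuron-like cells was 0.00055 without that library and 0.0026 without clusters mostly of 1 genotype, where Cdkn1c in ependymal-like cells was -0.26. Cdkn1b in tanycyte-like cells was -0.083 with library size, -0.086 with DESeq2, -0.0081 with sex as a covariate, -0.065 with litters, -0.031 without likely doublets and -0.11 without that library. Cdkn2d in non-neural cells was -0.014 with library size and with TREAT, -0.057 with sex, -0.062 with litters, -0.025 cell by cell and -0.42 in endothelial-like cells alone, where Cdkn1a was 0.38 and Cdkn2c -0.92. Leaving out 1 embryo gave ranges across 0 for Cdkn2d in all neural (-0.14 to 0.0023), neuron-like (-0.12 to 0.023), cycling (-0.39 to 0.17) and non-neural cells (-0.26 to 0.33), for Cdkn1c in astrocyte-like (-0.30 to 0.085) and ependymal-like cells (-0.048 to 0.53) and for Cdkn1b in tanycyte-like cells (-0.11 to 0.18). Among shares, after thinning, Cdkn2d turned to 0.58 percentage points in all neural, 1.07 in neuron-like and -1.55 in non-neural cells and Cdkn1b to -7.80 in tanycyte-like cells. With 2 UMIs asked for, Cdkn1b turned to 4.35 and Cdkn2d to 0.91 in cycling, Cdkn1c to 1.21 in ependymal-like and Cdkn2d to -2.73 in non-neural cells.

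Libraries, litters, doublet removal and cell by cell typing could not be fitted in cycling cells, nor libraries and cell by cell typing in tanycyte-like cells, nor cell by cell typing in ependymal-like cells. Thinned shares were not run for cycling cells. No paired analysis was possible because the labels tie no control embryo to an Eed-cKO embryo and no litter held both genotypes.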
